A study of Mus musculus with 79 samples.

Results

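The libraries described here are those of the fraction sorted as Schwann cells (SC fraction) and of the fraction sorted as macrophages from regenerating mouse nerve, 5 days after repair. Every day 5 library of either fraction was taken, from both repair groups, by its label for cell type and collection day. This gave 16 SC fraction libraries and 17 macrophage libraries, 33 of the 79 libraries of the series. The comparison asks which cell identities fill each sorted fraction.

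The study grafted the common peroneal nerve of S100β-eGFP mice to the tibial nerve, either at once (immediate repair) or 8 weeks after injury (delayed repair). In these mice the human S100β promoter drives green fluorescent protein, and all groups carried the reporter. The regenerative bridge was harvested 5 days later, 1 bridge per animal and not pooled, and RNA of 1000 sorted cells was amplified per library. The SC fraction had 9 libraries of delayed repair and 7 of immediate repair, and macrophages had 9 and 8, from female and male mice whose age is not given in the sources used here. In 16 animals both fractions were sequenced.

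Macrophages were gated as viable single cells that stained for F4/80, CD14, CD16/32 and CD11b. The SC fraction was gated as viable single cells that stained for none of these and carried the fluorescent reporter. Both gates excluded cells stained for Ly6G, Siglec F, CD3e, Thy1.2, CD31, Ter119 or other antigens, of which Thy1.2 was meant to remove fibroblasts. No antibody was directed at Schwann cells or dendritic cells, so the SC fraction was selected by the reporter and by the absence of the other stains. Sequencing libraries took 4 ng of cDNA for macrophages and 1.5 ng for the SC fraction, and this input and the cell fraction cannot be told apart.

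Schwann cells are the glia of peripheral nerve, which wrap axons in myelin and, after injury, shed the myelin programme and guide axons across the gap. Macrophages enter the injured nerve, clear myelin debris and secrete chemokines and growth factors. Dendritic cells present antigen on MHC class II to T cells. When they mature they raise the homing receptor CCR7, costimulatory molecules and the actin-bundling protein fascin, and a separate lineage, the plasmacytoid dendritic cell, carries Siglec-H.

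Total counts per library ranged from 14928745 to 28499407 in macrophages and from 18433741 to 30796823 in the SC fraction, and the totals did not differ beyond the spread between animals (exact sign-flip test over 16 animals, 2-sided p = 0.104). Levels are given as CPM, which are counts scaled to a common library total. A gene with no count could have had up to 3 counts, which is 0.201 CPM in the smallest macrophage library and 0.163 CPM in the smallest SC library, for counting error only. In bulk RNA, fewer cells of a type and less RNA per cell cannot be told apart.

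Of 10087 genes tested with edgeR's quasi-likelihood test, 3623 (35.9%) were higher and 2967 (29.4%) lower in the SC fraction at an adjusted p under 0.05. Of these, 1312 (13%) were at least 4-fold higher and 553 (5.48%) at least 4-fold lower. Genes called higher whose SC libraries all lay above all macrophage libraries numbered 1074 (10.6%), and 423 (4.19%) were lower without overlap. Fold changes are given as log2 of SC fraction over macrophages, and their median over all tested genes was 0.06. Scaled by library size alone the median was 0.31 and the calls were 4523 higher and 2059 lower, so small differences depend on the scaling, while no gene called in both ways changed direction.

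The RNA of the SC fraction went against its label. Genes of mature dendritic cells were high in every SC library, Schwann cell and fibroblast genes were present at levels that varied widely between libraries, and macrophage genes were low but seldom absent. Macrophage libraries held the macrophage genes throughout. The 8 marker genes, in the order macrophage, Schwann cell and dendritic cell, set out this pattern.

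**Figure D1:**
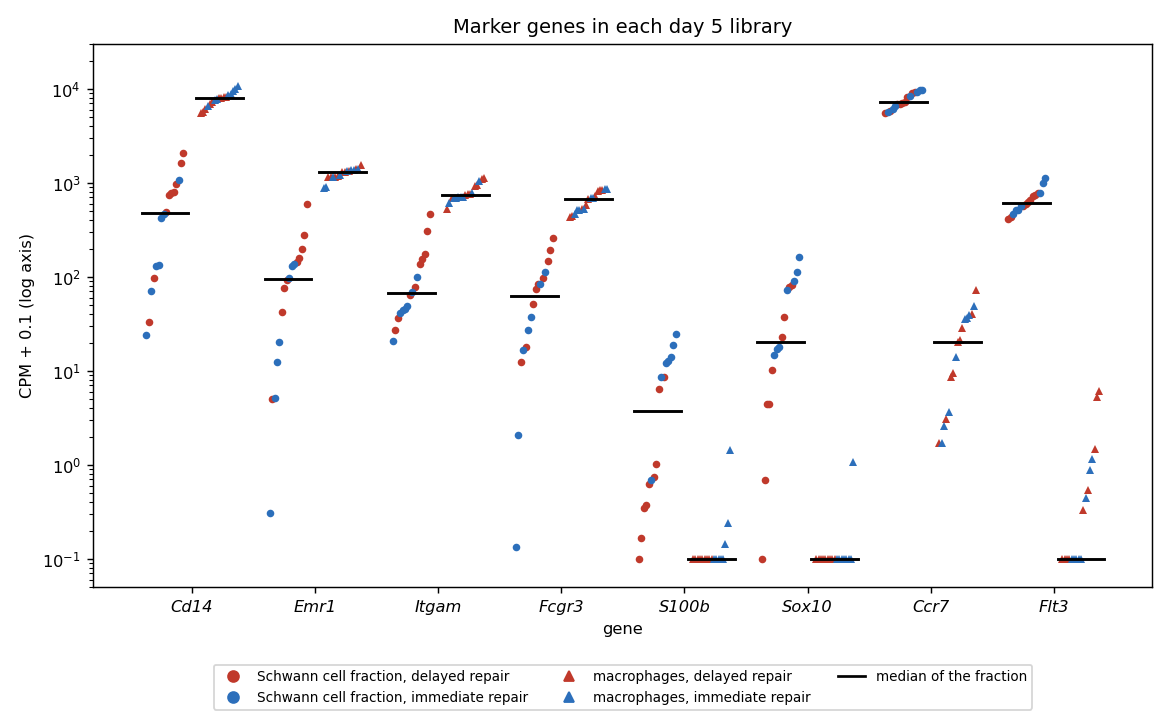
Level of the 8 marker genes in each day 5 library, as CPM + 0.1 on a log axis. Circles are SC fraction libraries (n = 16), triangles macrophage libraries (n = 17), colours give the repair group and black bars the median. Ccr7 and Flt3 lay in narrow bands in the SC fraction, whereas Sox10 ran from 0 to 161 CPM.

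Cd14, the co-receptor for bacterial lipopolysaccharide and a target of the macrophage gate, had 5585, 7911 and 10664 CPM in the lowest, median and highest macrophage library. In the SC fraction the same points were 24.2, 473 and 2084 CPM. The fractions did not overlap, yet every SC library held Cd14 RNA although stained cells were gated out. Cd14 was lower in 16 of 16 animals (log2 fold change -3.93, SE 0.46, adjusted p = 3.15e-09).

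Emr1 (Adgre1), which encodes F4/80, had 887, 1289.7 and 1544 CPM at the lowest, median and highest library in macrophages and 0.211, 94.9 and 591 CPM in the SC fraction (log2 fold change -3.58, SE 0.53, adjusted p = 3.55e-07). Itgam, the CD11b integrin chain, had 526, 747 and 1126 CPM in macrophages and 20.9, 66.9 and 469.6 CPM in the SC fraction (log2 fold change -3.04, SE 0.34, adjusted p = 1.04e-09). Fcgr3, the CD16 Fc receptor, had 436, 669 and 862 CPM in macrophages and 0.0351, 62.9 and 260.4 CPM in the SC fraction (log2 fold change -3.34, SE 0.49, adjusted p = 2.75e-07). None of the 3 overlapped between fractions, and each was lower in 16 of 16 animals. For Cd14 and Emr1, replicate 9 of delayed repair was the highest SC library, replicate 7 of delayed repair the second and replicate 3 of immediate repair the lowest.

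Sox10, the transcription factor that defines the Schwann cell lineage, had 0, 20.3 and 161 CPM in the lowest, median and highest SC library and reached 5 CPM in 12 of 16. In macrophages 16 of 17 libraries held no count and the highest held 0.982 CPM. S100b, whose human promoter drives the reporter, had 0, 3.65 and 24.7 CPM in the SC fraction and reached 5 CPM in 8 of 16 libraries, while 14 of 17 macrophage libraries held no count. Both were highest in replicate 1 of immediate repair, followed by replicate 7 of immediate repair, and each was 0 in 1 SC library of delayed repair, so the fractions overlapped at the bottom. Each was higher in the SC fraction in 15 of 16 animals (Sox10, log2 fold change 8.90, SE 0.93, adjusted p = 2.94e-10). For S100b the estimate was smaller (log2 fold change 5.77, SE 1.04, adjusted p = 9.55e-06). Replicate 6 of immediate repair was the highest macrophage library for both. It held all 28 macrophage counts of Sox10, and without it Sox10 was at least 5306-fold higher against a floor of 3 counts over the other 16. It held 38 of the 42 macrophage counts of S100b, and without it the log2 fold change of S100b was 8.44.

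Ccr7, the receptor that leads mature dendritic cells towards lymph nodes, had 5574, 7184 and 9706 CPM in the lowest, median and highest SC library and 1.59, 20.3 and 72.1 CPM in macrophages (log2 fold change 8.22, SE 0.51, adjusted p = 6.64e-16). Flt3, the receptor for a growth factor that dendritic cells depend on, had 416, 610 and 1124 CPM in the SC fraction, and 9 of 17 macrophage libraries held no count, with 5.94 CPM in the highest (log2 fold change 9.45, SE 0.75, adjusted p = 4.10e-13). Every SC library lay above every macrophage library for both genes. They also varied little among SC libraries, with 7591 ± 1468 CPM (SD, n = 16) for Ccr7 and 656 ± 195 CPM (SD, n = 16) for Flt3.

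In the mouse GRCm38 annotation, Emr1 lies at chr17:57358691-57483527, Itgam at chr7:128062640-128118491, Sox10 at chr15:79154908-79165240, Ccr7 at chr11:99144196-99155077 and Flt3 at chr5:147330741-147400489, all protein-coding.

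Other targets of the sort were measured as RNA. Fcgr2b, the CD32 Fc receptor, was lower in the SC fraction, with medians of 26.3 and 340.4 CPM in the SC fraction and macrophages (log2 fold change -2.93). Pecam1, which encodes CD31, was present in both fractions at means of 15.8 and 29.1 CPM although both gates excluded stained cells (log2 fold change -1.11). Cd3e and Thy1 reached at most 3.85 and 3.31 CPM in an SC library, too low to be tested. Reporter RNA, Ly6g and Siglecf were not analysed here.

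Macrophage genes were lower as a group. Of the 20 macrophage markers 19 were tested, and 0 were higher and 19 lower, beside 29.4% of all tested genes lower, with a median log2 fold change of -3.33 beside 0.06 for all genes. At least 4-fold lower were 18 of them, beside 5.48% of all genes. Apoe, a lipid carrier, had 11031, 18221 and 28895 CPM in the lowest, median and highest macrophage library and 48.6, 1019 and 9559 CPM in the SC fraction (log2 fold change -3.70, SE 0.51, adjusted p = 1.09e-07). Msr1, a scavenger receptor, had 578, 804 and 1167 CPM and 0.0351, 50.03 and 256 CPM (log2 fold change -3.81, SE 0.55, adjusted p = 2.60e-07). Neither overlapped between fractions, and the same held for Mrc1, the mannose receptor (log2 fold change -3.68).

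The level of macrophage genes differed between SC libraries by a wide margin. Each of the 19 genes was expressed as a percent of its level in the macrophage library of the same animal, and the median over genes was taken per animal. It was lowest in replicate 3 of immediate repair, at 0.416%, and highest in replicate 9 of delayed repair, at 42.9%. Replicate 7 of delayed repair had 28.2%, and the other 14 animals had at most 17.3%. Genes of 1 library also differed, from 0.0203% (Csf1r) to 320% (Mertk) in replicate 1 of immediate repair. In replicate 9 of delayed repair they ran from 31.8% to 68.7%. The summed macrophage list ran from 390.1 to 23719 CPM in the SC fraction and from 33554 to 63868 CPM in macrophages, without overlap. Without replicates 7 and 9 of delayed repair in the SC fraction, an alternative chosen after the data were seen, 3776 genes were higher and 2676 lower, 1331 and 603 of them by at least 4-fold. What part these genes have in the other differences was not tested, and neither was the source of their RNA.

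**Figure D2:**
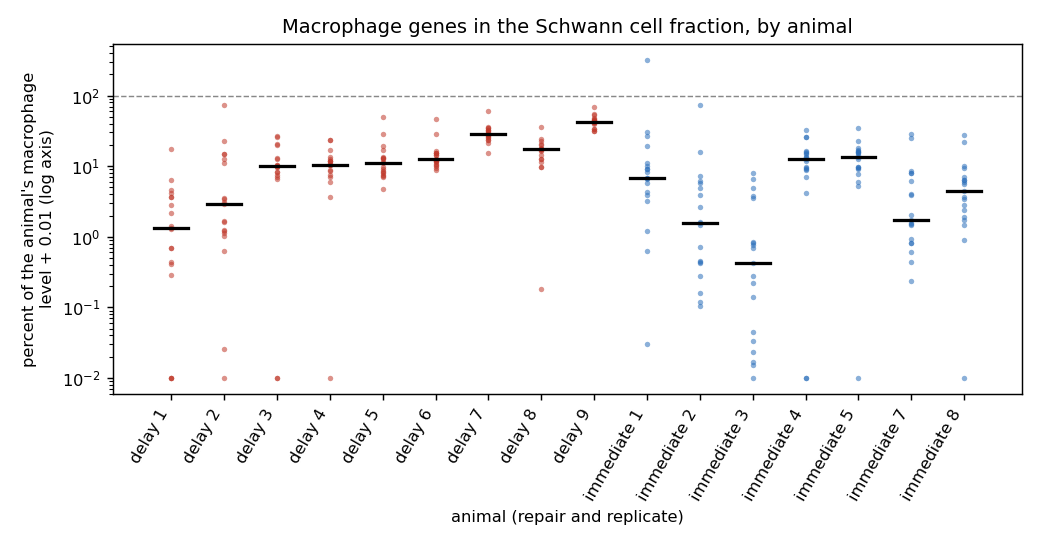
Level of 19 macrophage genes in each SC library as a percent of the macrophage library of the same animal, plus 0.01, on a log axis (16 animals, delayed repair in red and immediate repair in blue). Points are genes, black bars the median over genes, and the dashed line marks equal levels. Medians ran from 0.416% to 42.9%.

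The 10 largest falls without overlap, among genes of at least 50 CPM in macrophages, were Il1a, Gdf15, Cd14, Ccl7, F13a1, Igsf6, Cd300lb, Msr1, C5ar1 and Itga9. Il1a, an inflammatory cytokine, had 246, 1040 and 2031 CPM in the lowest, median and highest macrophage library and 0.316, 36.8 and 164 CPM in the SC fraction (log2 fold change -4.52, SE 0.57, adjusted p = 1.51e-08). Gdf15, a stress-induced member of the TGF-beta family, had 206, 951 and 1477 CPM and 0.0351, 52.9 and 139 CPM (log2 fold change -4.17, SE 0.60, adjusted p = 2.39e-07). C5ar1, the receptor for the complement fragment C5a, had 1216, 1566 and 2105 CPM and 0.0702, 99.8 and 603 CPM. The rule took only genes without overlap, so being lower in 16 of 16 animals followed from the choice.

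Most chemokines were lower, 14 of 19 tested against 4 higher (median -2.67), beside 29.4% lower and 35.9% higher among all tested genes. Ccl7, a ligand of the monocyte receptor CCR2, had 1363, 2028 and 3949 CPM in the lowest, median and highest macrophage library and 0.93, 69.2 and 632 CPM in the SC fraction. Cxcl2, which attracts neutrophils, had 5481, 12629 and 22519 CPM in macrophages and 178, 1228 and 2996 CPM in the SC fraction. Pf4 and Ccl8 were lower too, with log2 fold changes of -3.36 and -3.75.

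The 4 chemokines higher in the SC fraction were Ccl22, Ccl5, Cxcl16 and Cxcl14. Ccl22, a ligand of CCR4 made by mature dendritic cells, had 476, 1166 and 2309 CPM in the lowest, median and highest SC library and at most 42.3 CPM in macrophages (log2 fold change 8.00, SE 0.67, adjusted p = 1.47e-12). Ccl5, a chemokine that attracts T cells and monocytes, had 466, 695 and 1129 CPM in the SC fraction and 6.76, 14.3 and 35.3 CPM in macrophages. Of the chemokine receptors 6 of 15 were higher and 6 lower, beside 35.9% and 29.4% of all tested genes. Of the 6 higher, 4 reached 5 CPM in no macrophage library and were tested through the SC libraries alone, which favours a higher call. Ccr9 and Cxcr5, receptors of lymphocyte and dendritic cell homing, were higher without overlap, at medians of 154 and 234 CPM in the SC fraction and 0.933 and 0 CPM in macrophages. C3ar1 and Ccr1 were lower without overlap (log2 fold changes -3.03 and -3.29).

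Of the cytokines 5 of 17 were higher and 8 lower, the first a share below the 35.9% and the second above the 29.4% of all tested genes. Il12b, a subunit of IL-12 and IL-23, had 371, 1130.2 and 2843 CPM in the lowest, median and highest SC library, and its macrophage median was 0.0426 CPM. Il10, an anti-inflammatory cytokine, had 145, 316 and 641 CPM in macrophages and 0, 11.2 and 225 CPM in the SC fraction, with overlap of some libraries (log2 fold change -3.81, SE 0.77, adjusted p = 5.45e-05). Tnf was lower (log2 fold change -3.02) and Il6 higher (1.70). In immediate repair alone neither Il10 (-3.83, adjusted p = 0.0517) nor Il6 (1.08, adjusted p = 0.0912) was called. Il1b was not called, with medians of 1201 CPM in the SC fraction and 1118 CPM in macrophages (log2 fold change -0.16, adjusted p = 0.445), and its direction depended on the scaling. In immediate repair alone Il1b was called lower (-0.56, adjusted p = 0.0431).

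Receptors and enzymes of clearance were mostly lower. All 6 tested Fc receptor genes were lower (median -2.92), as were all 10 genes of iron and heme handling (median -2.17), beside 29.4% of all tested genes. Hmox1, which breaks down heme, had 2163, 3554 and 5315 CPM in the lowest, median and highest macrophage library and 139, 590.1 and 1392 CPM in the SC fraction. Of the genes of clearance and the lysosome 19 of 23 were lower and 3 higher (median -1.71). The higher ones were Timd4, Mfge8 and Axl, which act in the binding of dead cells. Timd4, a phosphatidylserine receptor, had 76.5, 184 and 267 CPM in the SC fraction and at most 4.19 CPM in macrophages (log2 fold change 8.48, SE 0.66, adjusted p = 1.96e-13).

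Complement genes were lower in 9 of 14 and higher in 3 (median -2.10). C1qb, a chain of the first complement component, had 1442, 2312 and 3507 CPM in the lowest, median and highest macrophage library and 3.63, 158 and 1342 CPM in the SC fraction, and C1qa and C1qc had log2 fold changes of -3.33 and -3.52. Pattern recognition genes were lower in 10 of 15 and higher in 2 (median -1.62). Of all tested genes 29.4% were lower and 35.9% higher. The higher pattern recognition genes were Clec9a, a receptor of cross-presenting dendritic cells, and Clec7a, the beta-glucan receptor, with log2 fold changes of 4.10 and 0.93. Clec4e and Tlr2, which sense microbial lipids and lipoproteins, were lower (-3.51 and -3.32).

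**Figure D3:**
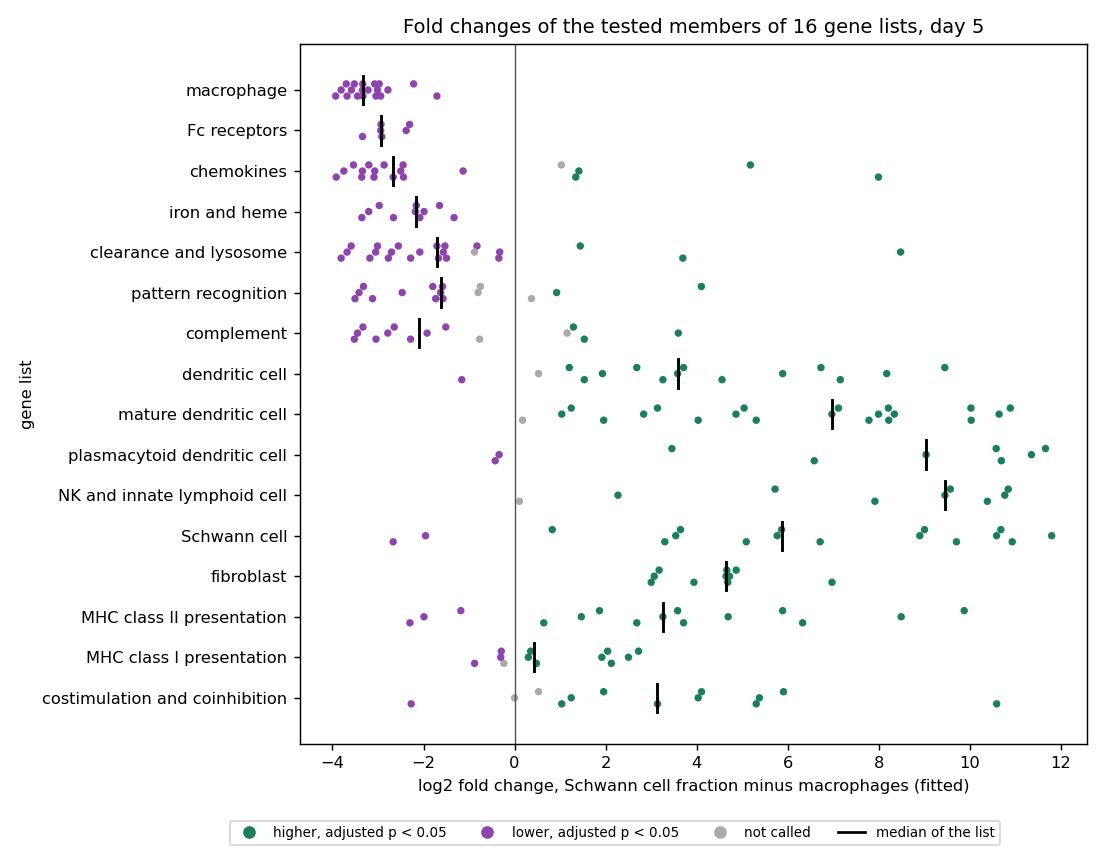
Fitted log2 fold change, SC fraction minus macrophages, of the tested members of 16 gene lists. Points are genes coloured by call and black bars are list medians. Medians ran from -3.33 for macrophage markers to 9.46 for markers of natural killer and innate lymphoid cells, the latter between 3.99 and 9.63 under 13 other settings.

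Promoters of the genes at least 4-fold higher or lower were searched for 5 short motifs on both strands, in the 250 bases before the transcription start given by RefSeq (GRCm38.p6). A promoter was listed for 926 of the 1312 higher genes, 409 of the 553 lower genes and 7626 of the 10087 tested genes. TGACTCA, a sequence bound by AP-1 factors, was in 2.81% of the promoters of higher genes, 8.07% of those of lower genes, 3.08% of all tested and 4.43% of all 27025 listed. The other motifs, in the order higher, lower, tested and all listed, were GAGGAAGT in 3.56%, 4.40%, 2.87% and 2.44%, AACAAAG in 3.24%, 3.91%, 3.07% and 4.99%, and GAAACTGA in 1.73%, 2.69%, 1.63% and 1.68%. GGGACTTTC was in 0.324%, 0.489%, 0.367% and 0.278%. A match is a run of letters and not a shown binding site, and no test was made.

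The promoters of the 3 genes with the largest falls among those that held TGACTCA, and had at least 50 CPM in macrophages, are shown to place this motif, which is in capitals. They belong to Il1a, to Mmp13, a collagenase, and to Plaur, the urokinase receptor, which was chosen by this rule alone and had means of 1480.3 CPM in macrophages and 160.3 CPM in the SC fraction. Sequences are given 5′ to 3′ on the strand of the gene, at chr2:129309973-129310222 (minus) for Il1a, chr9:7272264-7272513 (plus) for Mmp13 and chr7:24462233-24462482 (plus) for Plaur. The motif begins 12, 35 and 69 bases before the start.
Il1a: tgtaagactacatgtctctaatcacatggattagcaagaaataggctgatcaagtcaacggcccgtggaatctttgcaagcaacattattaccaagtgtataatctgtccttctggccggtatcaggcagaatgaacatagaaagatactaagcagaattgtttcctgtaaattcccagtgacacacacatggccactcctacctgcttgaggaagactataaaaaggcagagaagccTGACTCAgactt
Mmp13: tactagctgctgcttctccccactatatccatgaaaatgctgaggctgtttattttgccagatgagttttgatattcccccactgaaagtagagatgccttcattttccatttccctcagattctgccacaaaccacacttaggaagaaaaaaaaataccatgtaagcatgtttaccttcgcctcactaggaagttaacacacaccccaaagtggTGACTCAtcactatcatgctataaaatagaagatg
Plaur: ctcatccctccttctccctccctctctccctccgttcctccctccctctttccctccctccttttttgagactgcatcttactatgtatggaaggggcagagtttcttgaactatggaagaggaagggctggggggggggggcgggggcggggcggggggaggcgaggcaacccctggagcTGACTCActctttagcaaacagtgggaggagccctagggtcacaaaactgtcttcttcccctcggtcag

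Dendritic cell genes were high in the SC fraction. Of 15 general dendritic cell markers 13 were higher, beside 35.9% of all tested genes, and 1 lower (median 3.58). Of the higher members 3 of this list, and 2 of the mature list below, reached 5 CPM in no macrophage library. They were tested through the SC libraries alone, which favours a higher call. Of 21 tested markers of mature dendritic cells 20 were higher and 0 lower (median 6.97), 17 of them by at least 4-fold beside 13% of all genes. The exception was Marcksl1, a regulator of the cytoskeleton, at medians of 2449 and 1872 CPM in the SC fraction and macrophages (log2 fold change 0.18, adjusted p = 0.341). Scaled by library size alone it was called higher (0.41, adjusted p = 0.00417), and it was higher in 15 of 16 animals.

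Fscn1, which bundles actin in the processes of mature dendritic cells, had 1537, 2718 and 7999 CPM in the lowest, median and highest SC library and at most 10.2 CPM in macrophages (log2 fold change 10.64, SE 0.59, adjusted p = 2.68e-17). Cacnb3, a calcium channel subunit, had 394, 836 and 1289.7 CPM and at most 5.94 CPM. Zbtb46, a transcription factor of conventional dendritic cells, had 202, 289.7 and 419 CPM in the SC fraction and at most 6.13 CPM in macrophages (log2 fold change 7.16, SE 0.42, adjusted p = 1.71e-16). For all 3 the fractions did not overlap. Spint2 and Dpp4, a protease inhibitor and a surface peptidase, also did not overlap, with log2 fold changes of 8.18 and 6.73.

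In the median animal, the level in macrophages was 0.29% of that in the SC fraction for Ccr7, 0.0324% for Fscn1, 0.023% for Cacnb3 and 0.167% for Ccl22. Members of the mature list that macrophages share stood higher, at 38.7% for Cd86 and 38.5% for Cd274, which were named after their values were seen. The summed mature list ran from 29447 to 66044 CPM in the SC fraction and from 3179 to 5476 CPM in macrophages, and the general list from 19432 to 40973 and from 1249.8 to 5695 CPM. Neither sum overlapped between fractions.

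**Figure D4:**
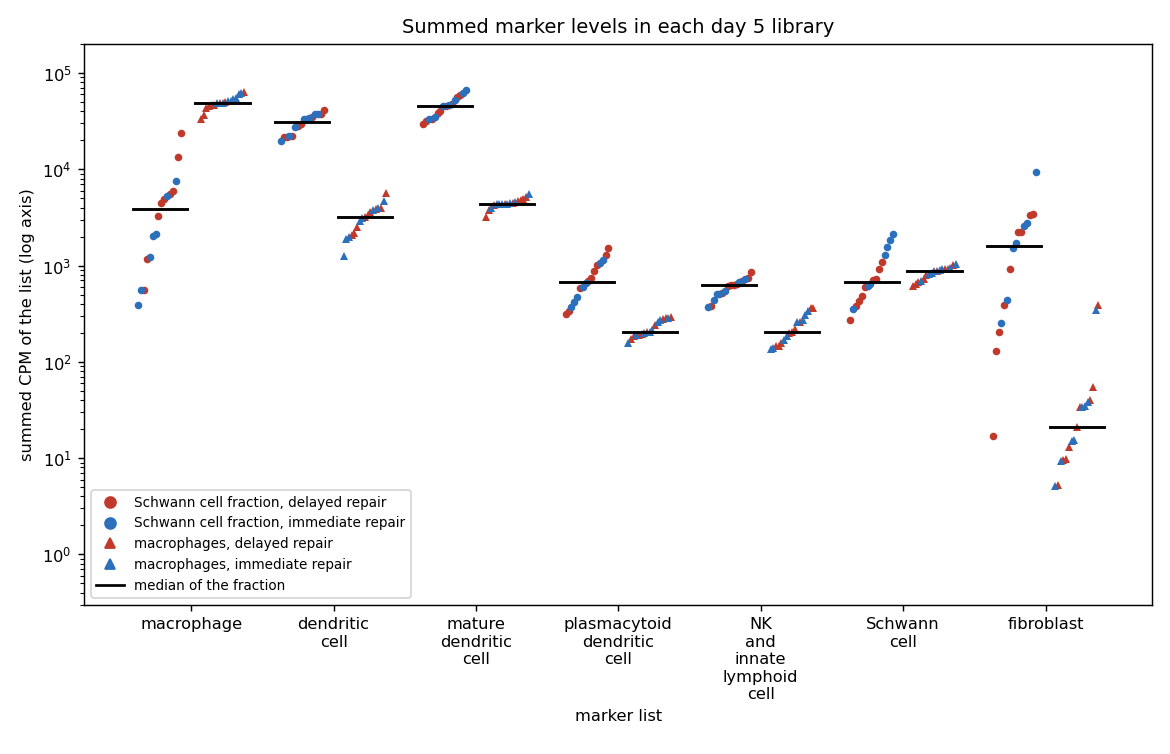
Summed CPM of 7 marker lists in each day 5 library, on a log axis. Circles are SC fraction libraries (n = 16), triangles macrophage libraries (n = 17), colours give the repair group and black bars the median. The fibroblast list ran from 16.97 to 9333 CPM in the SC fraction, and the mature dendritic cell list from 29447 to 66044 CPM.

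The 10 largest rises without overlap, among genes of at least 50 CPM in the SC fraction, were Dll4, Oprd1, Tcf7, Apol7c, Adcy6, Bcl2l14, Plekhs1, Zfp872, Fscn1 and Havcr1. Dll4, a Notch ligand, had 94.5, 353 and 1059 CPM in the lowest, median and highest SC library against 2 counts in all macrophage libraries together, a ratio of 79669 with a 95% counting interval of 22055 to 657850. Oprd1, the delta opioid receptor, had 19.7, 73.9 and 135 CPM and no macrophage count, at least 9876-fold higher against a floor of 3 counts over the macrophage group. Tcf7, a transcription factor of lymphoid cells, had 104, 189.6 and 319.6 CPM against at most 0.727 CPM. Apol7c, an apolipoprotein L gene on the mature list, had 143, 407 and 1323 CPM against at most 1.5 CPM.

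Antigen presentation was higher with these markers. Of 15 genes of MHC class II presentation 12 were higher and 3 lower (median 3.26), beside 35.9% and 29.4% of all tested genes. Of the 12 higher, 4 passed the filter through the SC libraries alone, which favours a higher call. Ciita, the master regulator of class II genes, had 29.6, 94.7 and 178 CPM in the lowest, median and highest SC library and 0, 1.44 and 3.13 CPM in macrophages (log2 fold change 5.89, SE 0.46, adjusted p = 3.05e-13). H2-Oa and H2-Ob, which form a brake on peptide loading, had log2 fold changes of 9.88 and 6.33. The lower ones were the lysosomal proteases Ctss and Lgmn and the ubiquitin ligase March1, at -2.30, -1.18 and -1.99. March1 was not called in delayed repair alone (-1.56, adjusted p = 0.0631) or in female animals alone (-0.99, adjusted p = 0.184).

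Of the class I genes 8 of 12 were higher and 3 lower (median 0.42). The peptide transporter gene Tap1 had 210.4, 341 and 404 CPM in the lowest, median and highest SC library and 13.4, 42.4 and 73.5 CPM in macrophages, and Tap2, Psmb8 and Psmb9 were likewise higher without overlap. Of 13 costimulatory and coinhibitory genes 10 were higher and 1 lower (median 3.14). Among the 10, 2 passed the filter through the SC libraries alone. The shares of all tested genes were 35.9% higher and 29.4% lower. Cd200, an inhibitory ligand for myeloid cells, had 785, 1389 and 2334 CPM in the SC fraction and 12.4, 24.2 and 62.9 CPM in macrophages. Pdcd1lg2 (PD-L2), a ligand of PD-1, had 109, 158 and 259 CPM and 0.595, 2.15 and 17.9 CPM. Neither gene overlapped, and the lower gene was Lgals9 (log2 fold change -2.27).

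Markers of single dendritic cell lineages were also counted, beside 35.9% higher and 29.4% lower among all tested genes. Of 9 tested markers of cDC1, the cross-presenting lineage, 5 were higher and 1 lower. Of these 5 higher markers 3 passed the filter through the SC libraries alone, which favours a higher call. Irf8, a factor this lineage needs, had 1430.1, 1979.8 and 2482 CPM in the lowest, median and highest SC library and 177, 232 and 331 CPM in macrophages, and Batf3 had 16.5, 31.2 and 48.7 CPM and 0.503, 1.95 and 4.72 CPM, both without overlap. The cDC1 chemokine receptor Xcr1 was not called, at medians of 9.41 and 12.2 CPM (adjusted p = 0.46), and its direction differed between female animals (0.77, adjusted p = 0.0638) and male animals, where it was called lower (-1.34, adjusted p = 0.0264). Of 9 tested markers of cDC2, the other conventional lineage, 4 were higher and 4 lower, with 12 listed. Of these 4 higher markers 3 also passed the filter through the SC libraries alone. Irf4, a factor of this lineage, was higher (log2 fold change 3.73) and Sirpa, a receptor that macrophages also carry, lower (-1.42).

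Plasmacytoid markers were present in nearly all SC libraries. Of 9 tested 7 were higher, each by at least 4-fold, and 2 lower (median 9.04), beside 35.9% higher, 13% at least 4-fold higher and 29.4% lower among all tested genes. In these 7 no macrophage library reached 5 CPM, and they passed the filter through the SC libraries alone, which favours a higher call. Of the list, 1 of the 10 listed was not tested. Under 13 other settings the median was between 5.58, in male animals alone, and 10.3, in immediate repair alone. Siglech had 0.043, 93.1 and 315 CPM in the lowest, median and highest SC library and reached 5 CPM in 15 of 16, with replicate 1 of delayed repair at the bottom. In macrophages 13 of 17 libraries held no count and the highest held 0.502 CPM. Ly6d, a marker of early lymphoid and plasmacytoid precursors, and Pacsin1, an adaptor of vesicle uptake, had no macrophage count and were at least 2530.1-fold and 2052-fold higher. The lower members were Bst2 and Tcf4, with medians of 138 and 83.7 CPM in macrophages (log2 fold changes -0.43 and -0.34). Neither stayed called with scaling by library size alone, with limma, in delayed repair alone or in female animals alone. Tcf4 also lost its call in immediate repair alone, in male animals alone and without replicates 7 and 9 of delayed repair in the SC fraction. Bst2 was not called without replicate 2 of delayed repair or replicate 1 of immediate repair in the SC fraction (-0.33 and -0.32), and Tcf4 was not called when any 1 of 9 SC libraries was left out (-0.30 to -0.26).

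Lymphoid genes were also found in the SC fraction. Of 9 tested markers of natural killer and innate lymphoid cells 8 were higher and 0 lower (median 9.46, or 9.08 with genes of 0 to 3 macrophage counts set at their bound). All tested genes were higher in 35.9% and lower in 29.4%. Of the 9 members 6 passed the filter through the SC libraries alone, with no macrophage library at 5 CPM, and 4 of the 13 listed were not tested, so the count and median describe the genes that passed and are no measure of the list. Under 13 other settings, each over the members it kept, the median was between 3.99, in immediate repair alone, and 9.63. Il2rb, a chain of the IL-2 and IL-15 receptors, had 0.0989, 42.1 and 261 CPM in the lowest, median and highest SC library, and 16 of 17 macrophage libraries held no count. Prf1, which encodes perforin, had 0, 3 and 52.2 CPM in the SC fraction and no macrophage count, at least 1439-fold higher. Il7r, the IL-7 receptor chain, was not called, at medians of 266 and 198 CPM (adjusted p = 0.601), but was called higher with scaling by library size alone (0.36, adjusted p = 0.0279) and in female animals alone (0.45, adjusted p = 0.00758).

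Of 12 T cell markers 4 were tested and 3 were higher, Cd8a, Cd8b1 and Cd4, beside 35.9% of all tested genes. Cd8a and Cd8b1 passed the filter through the SC libraries alone. Cd8a, the CD8 alpha chain, which some dendritic cells carry, had 2.33, 11.3 and 25.2 CPM in the lowest, median and highest SC library and at most 0.136 CPM in macrophages. Cd3e, part of the T cell receptor complex, had no count in 13 of 16 SC libraries. Kit, the stem cell factor receptor, had 205, 409 and 741 CPM in the SC fraction and at most 5.33 CPM in macrophages. It separated the fractions, and no other member of its list of eosinophil, mast cell and basophil markers was called higher.

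Schwann cell genes were higher than in macrophages, from low levels. Of 20 Schwann cell markers 17 were tested, and 15 were higher and 2 lower (median 5.87), beside 35.9% and 29.4% of all tested genes. No macrophage library reached 5 CPM for 12 of the 17, which passed the filter through the SC libraries alone, so that the filter favours a higher call. Under 13 other settings the median was between 3.01, in delayed repair alone, and 8.01, with the animal as a block. Mal, the myelin and lymphocyte protein, had 0, 7.72 and 32.7 CPM in the lowest, median and highest SC library and no macrophage count, at least 1311-fold higher.

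Ngfr, the low-affinity neurotrophin receptor raised in denervated Schwann cells, had 0.106, 6.55 and 89.7 CPM in the lowest, median and highest SC library against 1 count in all macrophage libraries, a ratio of 7177 with a 95% counting interval of 1288 to 283480. Cdh19 and Foxd3, a cadherin and a transcription factor of the neural crest lineage, had no macrophage count and were at least 2914-fold and 1227-fold higher. Both were absent from 2 SC libraries. Of the 12 genes of repair Schwann cells 6 were tested, 4 of them through the SC libraries alone. Of the 6, 5 were higher and 1 lower, beside 35.9% and 29.4% of all tested genes. Gdnf, a trophic factor for motor neurons, had 0, 9.55 and 62.2 CPM in the SC fraction.

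The lower Schwann cell markers were Pmp22 and Egr2. Pmp22, a myelin protein that other cells also express, had 397, 701 and 946 CPM in the lowest, median and highest macrophage library and 7.75, 143 and 291 CPM in the SC fraction, without overlap. Egr2, a transcription factor of myelination and of activated myeloid cells, had medians of 81.0 and 19.5 CPM. With these members included the summed Schwann cell list overlapped between fractions, at 274 to 2133 CPM in the SC fraction and 612 to 1028 CPM in macrophages.

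Fibroblast genes were high in some SC libraries and low in others, although the gate was meant to remove these cells by Thy1.2. All 10 tested fibroblast markers, of 15 listed, were higher, each by at least 4-fold (median 4.66). Of 23 extracellular matrix genes 17 were higher and 5 lower (median 4.82), beside 35.9% higher and 29.4% lower of all tested genes. Of the higher genes 3 fibroblast and 4 matrix genes passed the filter through the SC libraries alone, which favours a higher call. Col1a1, a chain of type I collagen, had 0.687, 199.8 and 1828 CPM in the lowest, median and highest SC library and 0.211, 3.48 and 126 CPM in macrophages. Postn, a matrix protein of wound fibroblasts, had 0, 133 and 725 CPM and 0, 0.433 and 10.6 CPM. The summed fibroblast list was lowest in replicate 4 of delayed repair (16.97 CPM) and highest in replicate 1 of immediate repair (9333 CPM), and the fractions overlapped. In macrophages, replicate 8 of delayed repair and replicate 4 of immediate repair held 388 and 348 CPM, against a median of 21.2 CPM.

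The matrix genes that were lower included Spp1, Thbs1 and Fn1, which macrophages make as well. Spp1, osteopontin, had 3093, 6804 and 11100 CPM in the lowest, median and highest macrophage library and 187, 929 and 2881 CPM in the SC fraction. Of the matrix proteases 9 of 12 were lower and 2 higher, beside 29.4% lower and 35.9% higher of all tested genes. Mmp12, the macrophage elastase, was lower (log2 fold change -4.01), whereas Mmp25, a membrane-bound protease, had 178, 305 and 584 CPM in the SC fraction and at most 4.04 CPM in macrophages.

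The identities were also compared with each other over the 16 SC libraries. The 6 pairs of Ccr7, Emr1, Sox10 and Col1a2, a collagen gene, were compared on log2(CPM + 1). Ccr7 was lower where Emr1 was higher (Pearson r = -0.61, permutation p = 0.0118, adjusted p = 0.0374). On ranks the same pair had rho = -0.62 (permutation p = 0.0118, adjusted p = 0.0708). The adjusted threshold was also missed with a pseudocount of 10 (r = -0.62, permutation test, adjusted p = 0.0565) and with TMM-scaled CPM (r = -0.54, adjusted p = 0.1). Without the 2 libraries farthest from the median of Ccr7 r was -0.67, and within delayed and immediate repair it was -0.77 and -0.48.

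Sox10 and Col1a2 were high in the same libraries (Pearson r = 0.60, permutation p = 0.0125, adjusted p = 0.0374), with rho = 0.54 (permutation p = 0.0338, adjusted p = 0.101). Without the 2 libraries farthest from the median of Sox10 r was 0.57, and it was 0.46 in delayed and 0.93 in immediate repair. Neither pair passed the adjusted threshold on ranks, and this pair missed it too with a pseudocount of 10 (r = 0.58, adjusted p = 0.0565) and with TMM-scaled CPM (r = 0.57, adjusted p = 0.1). Ccr7 with Sox10 had r = -0.26 (rho = -0.25), Ccr7 with Col1a2 -0.38 (rho = -0.39), Emr1 with Sox10 -0.13 (rho = -0.11) and Emr1 with Col1a2 0.22 (rho = 0.33), and the lowest permutation p of these 4 was 0.13. Within delayed repair (9 libraries) these 4 pairs had r = -0.19, -0.37, -0.10 and 0.30, and within immediate repair (7 libraries) r = -0.83, -0.73, 0.51 and 0.73, so that Emr1 with Sox10 changed sign between the groups. The difference between the groups was not tested. All levels are shares of a library total, so a larger share of one RNA lowers the others.

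**Figure D5:**
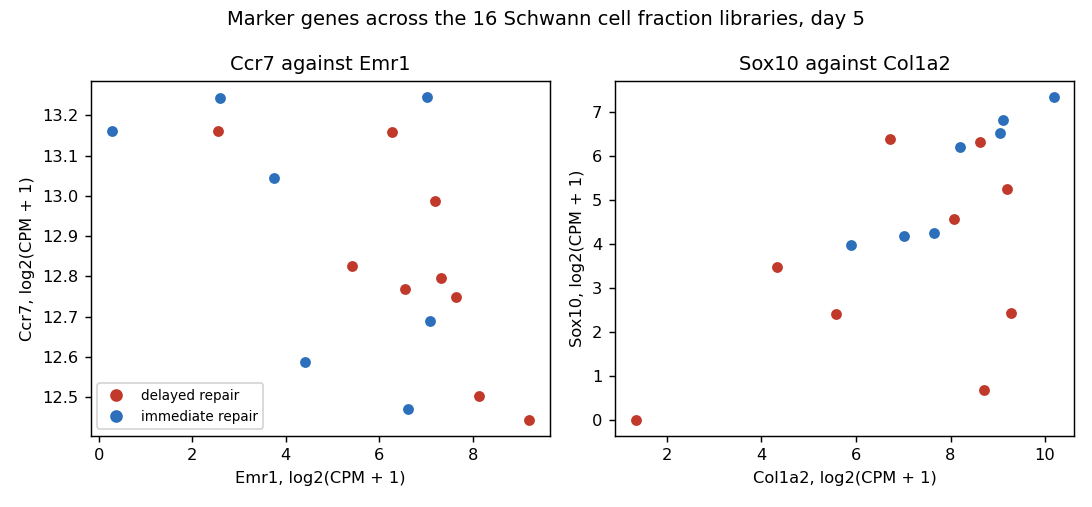
Ccr7 against Emr1 and Sox10 against Col1a2 in the 16 SC fraction libraries, as log2(CPM + 1), with delayed repair in red and immediate repair in blue. Pearson r was -0.61 for the first pair and 0.60 for the second.

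The 3 genes closest in pattern to each of Ccr7, Emr1, Sox10, Col1a2 and Siglech over these libraries, by Pearson r among 10086 other tested genes, are given as a description and were named after their values were seen. For Ccr7 they were Iscu (r = 0.85), Insl6 (r = 0.84) and Ptges3 (r = 0.83), none of them on the dendritic cell lists. For Emr1 they were Ctsb (r = 0.98), C5ar1 (r = 0.95) and Ptplad2 (r = 0.95). For Sox10 they were Mcam (r = 0.98), Col18a1 (r = 0.96) and Ngfr (r = 0.94). For Col1a2 they were Col1a1 (r = 0.98), Sparc (r = 0.96) and Serpinh1 (r = 0.94), the last a chaperone of collagen. For Siglech they were Sash3 (r = 0.95), 1110059E24Rik (r = 0.93) and Ap1ar (r = 0.91), of which the first and second were not called between the fractions.

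The difference between fractions was then compared between the repair groups. The interaction of fraction and repair passed for 2 of 10087 genes (0.0198%) in edgeR, with 524 at an unadjusted p under 0.05, and these were the chemokine receptors Ccr1 and Ccr3. In the SC fraction Ccr1 had 117 ± 88.6 CPM in delayed repair (SD, n = 9) and 20.9 ± 10.8 CPM in immediate repair (n = 7), beside 624 and 618 CPM in macrophages. Ccr3 had 4.09 ± 5.96 CPM in the SC fraction of delayed repair and no count in that of immediate repair. Macrophage markers lay the same way in these SC libraries, with means of 177 CPM in delayed and 57.2 CPM in immediate repair for Emr1, 844 and 329 CPM for Cd14, 161 and 52.9 CPM for Itgam and 104 and 40.2 CPM for Fcgr3. Both SC libraries highest in macrophage genes, replicates 7 and 9, were of delayed repair. Without them, an alternative chosen after the data were seen, Ccr1 had 76.6 ± 37.6 CPM in delayed repair (SD, n = 7) and was not called (log2 difference 1.95, edgeR adjusted p = 0.0535), while Ccr3 was called (adjusted p = 0.044), as was Kctd4, named after its values were seen, at 1.11 ± 1.55 CPM in delayed and 0.00604 CPM in immediate repair. With the animal as a block, over the 16 animals with both libraries, neither Ccr1 nor Ccr3 was called, and the block called 0 genes with 567 at an unadjusted p under 0.05, and DESeq2 called 21. None of the 8 markers passed.

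The same fractions were also sorted at day 14 (15 libraries each). The difference, SC fraction minus macrophages, was larger at day 14 in 541 of 11161 genes (4.85%) and smaller in 1226 (11.0%), and none of the 8 markers passed. With library size alone the counts were 798 and 822, with DESeq2 825 and 1168, and with the animal as a block 586 and 1158. The excess of smaller differences thus depended on the scaling and was small with library size alone. Of the 15 MHC class II genes 11 had a smaller difference (median -1.79, beside -0.03 for all genes). The 4 with the largest such change were H2-DMb2, Ciita, H2-Eb1 and H2-Aa. H2-Aa, a class II alpha chain, had 253 ± 122 CPM in macrophages at day 5 (SD, n = 17) and 1127 ± 484 CPM at day 14 (n = 15), beside 3518 ± 897 and 3691 ± 1231 CPM in the SC fraction. Sox10 in the SC fraction had 45.4 ± 48.2 CPM at day 5 (SD, n = 16) and 112 ± 51.2 CPM at day 14 (n = 15), where it ranged from 13.7 to 199 CPM and no library was without it. The change of its fraction difference from day 5 to day 14 did not pass (log2 0.12, SE 1.99, adjusted p = 0.982).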

How the data were processed

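RNA of sorted cells was measured by SMART-Seq v4 sequencing. The authors deposited tables of estimated counts per gene for 23361 genes, of which 0.934% of the day 5 values were not whole, and these were rounded here. The submitters' processing notes name cutadapt 1.8, TopHat2 2.1.1, Cufflinks 2.2.1, Cuffnorm and the genome mm10, and the program that wrote the counts is not given in the sources used here. CPM values were computed here from the deposited counts. The distal stump table was not used, and day 14 libraries entered only the comparison with day 5.

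Genes that reached 5 CPM in 6 or more libraries were kept, scaled by TMM and tested with edgeR 4.0.16 (quasi-likelihood, all 33 libraries, R 4.3.3), with Benjamini-Hochberg adjustment and a threshold of 0.05. Of the 10087 genes tested 910 reached 5 CPM in no macrophage library, of which 873 were called higher, and 33 in no SC library. DESeq2 1.42.0 and limma 3.58.1 were alternatives, beside other filters and scalings, single sexes and repair groups, and each library left out. The scripts were tested on simulated data. Correlations used 100000 permutations in scipy 1.17.1. Replicates are separate animals, and no 2 libraries held identical values. Both fractions of 16 animals carry the same animal label, which pairs them. The main test had no term for the animal, so its p-values leave this pairing out, and the fit with the animal as a block was an alternative. The deviations of paired libraries correlated at 0.00399 to 0.274 (median 0.125), over 0.1 in 11 of 16 animals. In 7 of the 16 the SC library correlated best with the macrophage library of its own animal.

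Named genes are the 8 markers, the antibody targets, the 10 largest rises and falls without overlap at 50 CPM or more, and, of each list, up to 4 called members with the largest change in each direction and up to 2 members not called. A few of these genes are not reported here. The members, lists and rules were chosen with earlier results of these data known. Counting intervals cover 95% and counting error only.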

Additional observations from a re-analysis of the deposited data

Results flagged for a closer look

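Within the 4 groups of day 5, 64 sets of values (markers, list sums and totals) were searched for a single library far from the others of its group, and 6 were found, where chance gives about 1 in 20. Itgam was high in replicate 8 of immediate repair among macrophages (1057 CPM, with the next at 782 CPM). Replicate 6 of immediate repair was high among macrophages for S100b (1.33 CPM, next 0.139 CPM) and for Sox10 (0.982 CPM, next 0). S100b was low in replicate 2 of immediate repair in the SC fraction (0.592 CPM, next 8.42 CPM). Among macrophages of immediate repair, the mature dendritic cell sum was high in replicate 1 (5476 CPM, next 4605 CPM) and the fibroblast sum in replicate 4 (347.8 CPM, next 38.0 CPM).

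The difference between fractions itself differed between the repair groups in 2 genes and between day 5 and day 14 in 1767 genes in edgeR, of which the 4 class II genes named above are given here. Between delayed and immediate repair the log2 difference was 2.57 for Ccr1 (adjusted p = 0.0326) and 9.38 for Ccr3 (adjusted p = 0.0215), the latter against an SC group with no count, so that its size depends on the prior count. Without the 2 SC libraries highest in macrophage genes, Ccr1 was not called in edgeR (1.95, adjusted p = 0.0535). With the animal as a block neither Ccr1 nor Ccr3 was called. Between day 14 and day 5 it was -2.89 for H2-DMb2 (adjusted p = 0.000204), -2.78 for Ciita (adjusted p = 4.04e-05), -2.25 for H2-Eb1 (adjusted p = 1.30e-09) and -2.22 for H2-Aa (adjusted p = 8.99e-08).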

How the results depend on the processing

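Leaving out each replicate in turn, genes higher ranged from 3575 to 3823, lower from 2664 to 3092, at least 4-fold higher from 1278 to 1350 and at least 4-fold lower from 502 to 569. With 1 library left out the log2 fold change reached -5.22 for Mmp12, -4.64 for Il10, 9.52 for Timd4 and 8.985 for Ccl22, and all of these stayed called. Without a filter 5901 genes were higher, 3497 at least 4-fold higher and 1273 at least 4-fold lower, and in female animals alone 334 were at least 4-fold lower. With the animal as a replicate block, 3290 genes were higher and 3211 lower, the interaction with repair called 0 genes, and the pairing changed the sign of the day differences of Cd14 (0.24), Itgam (0.24), S100b (-2.105) and Sox10 (-2.22), none of which passed. The interaction with repair called 21 genes with DESeq2 and 1 with library size alone. Other sign changes of day differences were 0.0195 (Cd14) and 0.11 (Itgam) with library size alone and 0.0474 (Itgam) with DESeq2. Il1b was 0.13 with library size alone, 0.26 in delayed repair and 0.10 in females, none of them called, and it was called in immediate repair (-0.56). Il7r was -0.0222 in males and was called with library size alone (0.36) and in females (0.45). Xcr1 was 0.0607 with library size alone and 0.77 in females and was called in males (-1.34), and Marcksl1 was called with library size alone (0.41). Calls were lost for Il10 (-3.83) and Il6 (1.08) in immediate repair alone and for March1 in delayed repair (-1.56) and in females (-0.99). The Schwann cell median was 3.01 in delayed repair, 4.09 in males, 4.40 with filterByExpr and 8.01 with the block. That of natural killer and innate lymphoid markers was 6.02 with limma, 4.00 with filterByExpr, 5.87 in delayed and 3.99 in immediate repair, 5.29 in females and 6.64 in males. That of plasmacytoid markers was 7.82 with filterByExpr, 10.3 in immediate repair and 5.58 in males. The correlation of Ccr7 and Emr1 lost its adjusted threshold with a pseudocount of 10 (-0.62) and TMM-scaled CPM (-0.54), as did that of Sox10 and Col1a2 (0.58 and 0.57). The causes were not tested. Of the list medians, 199 of 221 values under other settings moved by less than the spread, and the sign stayed the same in all. Depth limits genes near 0.2 CPM, and a list's low members rest on few counts.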

Other observations

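Other gene groups are given beside the 35.9% of all tested genes that were higher and the 29.4% that were lower. Of 14 tested genes of proliferation 11 were higher in the SC fraction and 1 lower, and of 16 genes of cell migration and the cytoskeleton 11 were higher and 4 lower. Among the 11 proliferation genes 2 passed the filter through the SC libraries alone. Of 13 growth factors 11 were lower and 2 higher, and of 22 interferon response genes 11 were lower and 7 higher. Ribosomal protein genes were higher in 68 of 89 and lower in 5, with a median log2 fold change of 0.50.

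The SC fraction libraries of replicates 1 to 4 came from male and those of replicates 5 to 9 from female mice, so sex and whatever else the numbers share cannot be told apart. The summed mature dendritic cell list ranged from 45149 to 66044 CPM in the 8 male libraries and from 29447 to 45045 CPM in the 8 female libraries, without overlap. The summed plasmacytoid list ranged from 314.5 to 885 CPM in males and from 653 to 1504 CPM in females. In the same libraries the summed macrophage list had a median of 1598 CPM in males and 5444 CPM in females, and the fibroblast list 415 and 2220 CPM, both with overlap, while the general dendritic cell list had 30749 and 31175 CPM. This was noticed after the values were seen and was not tested.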
